A study of Homo sapiens with 4 samples.

Results

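The mRNA levels of 10 genes were read in untreated HaCaT cells: the high mobility group (HMG) genes HMGB1, HMGB2, HMGB3, HMGA1, HMGA2, HMGN1 and HMGN2, and the HMGB1 receptor genes AGER, TLR2 and TLR4. They were picked by gene symbol, with no threshold on their values, although earlier results of these data were known when the list was made. Each had exactly 1 of the 44591 entries of the count tables and was among the 19233 protein-coding ones. HaCaT is an immortalized line of human epidermal keratinocytes, and 4 biological replicates of 1 condition were sequenced, with no treated or control group beside them. The study that made these libraries asked about HMGB1 as a partner of the deacetylase SIRT7 in irradiated keratinocytes, and its irradiation, knockdown and protein data were not analysed here. All 4 replicates were the same line without treatment, grown in Dulbecco's modified Eagle medium with serum, for which the sample labels give 12%, a figure that differs from the one in the methods. All come from 1 cell line, so differences between people or skin layers are not in these data.

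Only HMGB1, HMGB2 and HMGB3 carry HMG boxes, the DNA-bending domains that gave the class its name. The HMGA proteins bind the minor groove of AT-rich DNA through AT-hooks, and the HMGN proteins bind the nucleosome core particle, so all 7 are named here as HMG genes. In the nucleus HMGB1 is an abundant chromatin protein that bends DNA and takes part in repair, and its acetylation favours its move to the cytoplasm. Outside the cell, after release from stressed or dying cells, it acts as an alarmin through the receptor for advanced glycation end products (RAGE, the product of AGER) and the Toll-like receptors TLR2 and TLR4. RAGE signals through the formin DIAPH1, and the Toll-like receptors through MYD88, with MD-2 (LY96) as the TLR4 partner that holds the ligand.

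The study targeted HMGB1 with 2 siRNAs, shown here because the 3 HMGB genes are similar in sequence and the library values of each depend on telling them apart. The first siRNA site lies on chromosome 13 from 30462603 to 30462621 (GRCh38, GENCODE release 29), on the minus strand, in exon 4 and in the coding sequence of transcript HMGB1-203. The second lies in the 3′ UTR, in exon 5, from 30461338 to 30461356. The sites are given 5′ to 3′ on the transcript.
siHMGB1_01: ggagagatgtggaataaca
siHMGB1_02: gttggttctagcgcagttt
At the aligned position of the HMGB2 and HMGB3 coding sequences, the window for the first siRNA reads as follows, with bases that differ from HMGB1 in capitals.
HMGB2 window: ggTgaAatgtggTCtGaGC
HMGB3 window: ggTgagatgtggaataaTT
The first siRNA differed from HMGB3 at 3 of 19 bases (A3T, C18T and A19T, counted from the 5′ end, siRNA base first) and from HMGB2 at 7 of 19. The 14 bases in a row that HMGB3 shares with it are the longest run within the best-matching windows of the other 6 HMG genes. The first siRNA also matched 13 other annotated genes exactly, all of them HMGB1 pseudogenes, and the second matched 0. The best match of the second siRNA in either gene had 7 of 19 bases different.

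The forward HMGB1 primer of the study crosses the junction of exons 3 and 4, and its aligned windows are written in the same way.
HMGB1_FP: cttcggccttcttcctcttctg
HMGB2 window: cAtcTgccttcttcctGttTtg
HMGB3 window: cGtcTgGAttcttcctGttctg
HMGB2 differed at 4 of 22 bases (T2A, G5T, C17G and C20T) and HMGB3 at 5 of 22. The forward primer matched 2 other annotated genes exactly, HMGB1P5 and HMGB1P6, and the reverse primer of the study matched 10. Over the aligned coding sequence HMGB1 was identical to HMGB2 at 77.0% of the bases and HMGA1 to HMGA2 at 66.7%. No off-target effect was measured, since no library of a knockdown was used.

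Levels are given as TPM, the reads per base of gene length scaled to 1000000 over the protein-coding genes of a library, computed from the deposited counts and gene lengths. The libraries held 73082279 counts in replicate 1 and 17056035 to 19745170 in replicates 2 to 4, and protein-coding genes took 76.1% of the counts in replicate 1 against 95.3% to 96.4% in the others. Across 12165 protein-coding genes with a mean TPM above 1, the rank correlation across genes was 0.754 to 0.780 between replicate 1 and another replicate and 0.944 to 0.967 among replicates 2 to 4. Replicate 1 thus stands apart, and the levels of the HMG and receptor genes below are given by replicate. Some results pool all replicates, such as percentiles of the mean and differences under other gene lengths or with pseudogene reads added. The keratinocyte label was checked on 8 markers, all with a TPM above 1 in every replicate, led by KRT14 with a mean TPM of 6847 and KRT5 with 3244. Markers of other cells with 3 or fewer counts in every replicate included PTPRC of leukocytes, PECAM1, KDR and TEK of endothelium and TYR of melanocytes. Some other markers on those lists were not at 0. CD68 of the myeloid list had a TPM of 7.94 to 43.9, the melanocyte list held MITF at 2.37 to 6.72 and PMEL at 1.36 to 2.87, and VWF had 2.36 in replicate 1. CDH5 of the endothelial list had 0 in replicate 1 and 0.762 to 1.49 in the others. LUM and DCN of the fibroblast list had 3.35 and 1.63 in replicate 1. The 7 fibroblast markers summed to a TPM of 5.57, 5.20, 8.84 and 9.70 by replicate, with COL1A1 at up to 8.54, and the 7 endothelial ones to 0.956 to 2.38. Every p below comes from a test of whether the mean difference between 2 genes or sets within a replicate is 0. The replicates are cultures of 1 line, so each p speaks only for these samples.

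HMGB1 was among the most abundant mRNAs of HaCaT, next to HMGB2 and well above HMGB3. HMGB1, the chromatin protein and alarmin described above (hg19 chromosome 13, 31032053 to 31191734, minus strand, length 5367 bp), had 34850, 6029, 10829 and 7044 counts in replicates 1 to 4. These correspond to a TPM of 267, 169, 224 and 176, a mean of 209 ± 45.9 (SD, n = 4). Replicate 1 was highest and replicate 2 lowest, and the highest was 1.58 times the lowest. The mean was above 94.0% of the 12165 genes. HMGB2, the form that is abundant in proliferating cells (chromosome 4, 174252527 to 174255595, minus strand, 1653 bp), had a TPM of 232, 179, 253 and 221, a mean of 221 ± 31.0 (SD, n = 4). Its highest value was in replicate 3, and its range lay inside that of HMGB1. HMGB3, the X-linked member of the family (chromosome X, 150148981 to 150159248, plus strand, 3915 bp), had 50.7, 31.6, 34.2 and 36.0, a mean of 38.1 ± 8.56 (SD, n = 4). It was highest in replicate 1, and its range did not overlap that of HMGB1 or HMGB2.

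HMGB1 and HMGB2 could not be ordered. On the log2(TPM + 1) scale HMGB1 was above HMGB2 by 0.21 in replicate 1 and below it by 0.08, 0.17 and 0.33 in replicates 2 to 4. The mean difference was -0.09 ± 0.22 (SD, n = 4; exact permutation test that flips signs, two-sided, p = 0.50). From the counts alone, HMGB1 had 1.15 times the reads per base of HMGB2 in replicate 1 (95% Clopper-Pearson interval 1.13 to 1.18) and 0.797 times (0.762 to 0.833) in replicate 4. These replicates are the highest and the lowest of the 4 ratios, and the intervals cover counting error only. HMGB1 exceeded HMGB3 in 4 of 4 replicates, by 2.26 to 2.68, a mean of 2.42 ± 0.18 (SD, n = 4) and 4.89 to 6.56 times the reads per base. The exact sign-flip permutation test gave p = 0.125, the smallest value that 4 replicates allow, so no difference here can pass 0.05. It was 0.161 after Benjamini-Hochberg adjustment over a set of 9 differences. That set leaves out other pairs tested, such as HMGA1 minus HMGN2 below. HMGB1 also had 5.67, 3.03, 2.81 and 3.15 times the reads per base of SIRT7, the deacetylase studied with it, in replicates 1 to 4. These ratios rest on the deposited lengths, and other lengths were not tried for them. Without length correction the read ratios were 17.6, 9.39, 8.70 and 9.76.

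**Figure D1:**
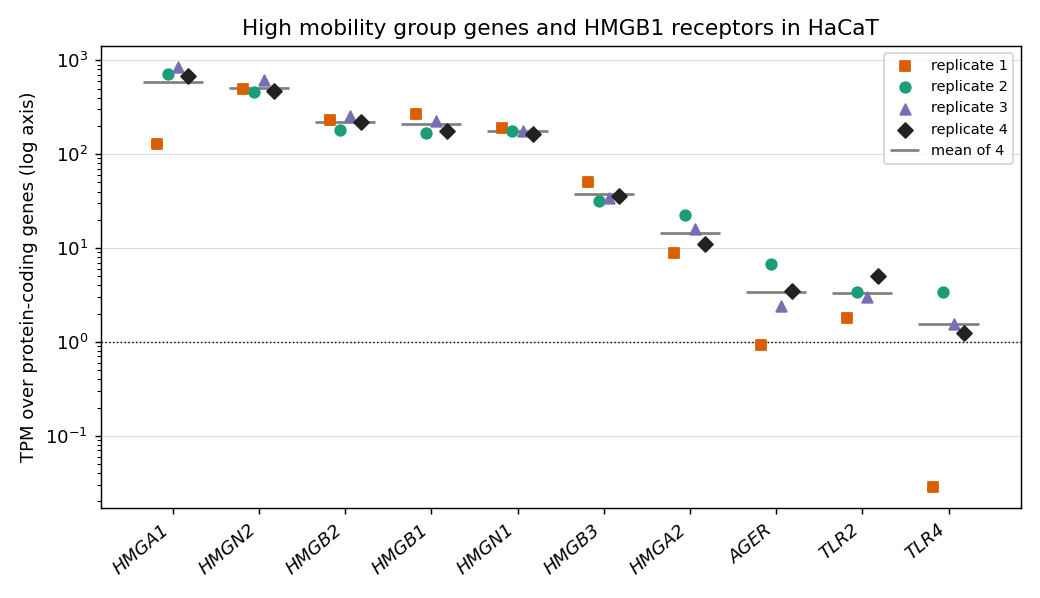
TPM over protein-coding genes (log axis) of the 10 genes in each of the 4 replicates, ordered by the mean of 4 (grey bars), with a dotted line at a TPM of 1. The 7 HMG genes lie above the 3 receptors in every replicate, and replicate 1 (squares) is lowest for HMGA1, HMGA2 and the 3 receptors.

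HMGA1 had the highest mean of the 10 genes and also the widest spread of the HMG genes, with replicate 1 far below the others. HMGA1, an AT-hook protein that is high in embryonic and proliferating cells (chromosome 6, 34204577 to 34214008, plus strand, 2400 bp), had 7490, 11459, 18336 and 12056 counts in replicates 1 to 4. Its TPM was 128, 718, 850 and 674, a mean of 593 ± 318 (SD, n = 4). Replicates 2 to 4 lay within 1.26 times of each other, and replicate 1 was 5.82 times below their mean. HMGA1 ranked first of the 10 in replicates 2 to 4 and 5 of 10 in replicate 1. On the log2(TPM + 1) scale HMGA1 minus HMGN2 had a mean of -0.09 ± 1.24 (SD, n = 4; exact sign-flip permutation test, p = 1), so its lead in mean TPM does not hold on that scale.

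HMGA2, the other AT-hook gene, which is mostly silent in adult tissue (chromosome 12, 66218240 to 66360071, plus strand, 6062 bp), had 8.96, 22.6, 15.9 and 11.0, a mean of 14.6 ± 6.06 (SD, n = 4). Replicate 2 was highest and replicate 1 lowest, and the range was 2.52 times. HMGA1 exceeded HMGA2 by 3.70, 4.93, 5.65 and 5.82 on the log2(TPM + 1) scale, in 4 of 4 replicates, with a mean of 5.03 ± 0.96 (SD, n = 4; exact sign-flip permutation test, p = 0.125). Per base of length that was 14.3 times the reads in replicate 1 and 31.8 to 61.5 times in the others. HMGA2 overlaps genes of the opposite strand, of which RPSAP52 held reads equal to 10.9% to 22.9% of those of HMGA2. Whether the counting used strand is not given in the sources used here, so these reads cannot be told apart from those of HMGA2.

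The HMGN genes, whose products unfold chromatin at nucleosomes, differed from each other in level. HMGN2 (chromosome 1, 26798902 to 26803133, plus strand, 1969 bp) had a TPM of 498, 461, 614 and 477, a mean of 512 ± 69.2 (SD, n = 4). Replicate 3 was highest, and replicates 1, 2 and 4 lay close together. HMGN1 (chromosome 21, 40714241 to 40721047, minus strand, 1304 bp) had 191, 175, 178 and 164, a mean of 177 ± 11.2 (SD, n = 4), the smallest relative spread of the 10 genes with a CV of 6.32%. Over replicates 2 to 4 its CV was 4.20%, again the smallest, and that of HMGN2 was 16.2%. HMGN2 exceeded HMGN1 by 1.37 to 1.78, a mean of 1.52 ± 0.19 (SD, n = 4; exact sign-flip permutation test, p = 0.125), in 4 of 4 replicates.

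HMGB1 was below HMGN2 in 4 of 4 replicates, by a mean difference of -1.30 ± 0.27 (SD, n = 4; exact sign-flip permutation test, p = 0.125). The differences were -1.44, -1.45 and -1.43 in replicates 2 to 4 and -0.90 in replicate 1. Their read counts in replicates 2 to 4 were nearly equal, at 0.999, 0.997 and 1.01 HMGB1 reads per HMGN2 read, against 1.46 in replicate 1.

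**Figure D2:**
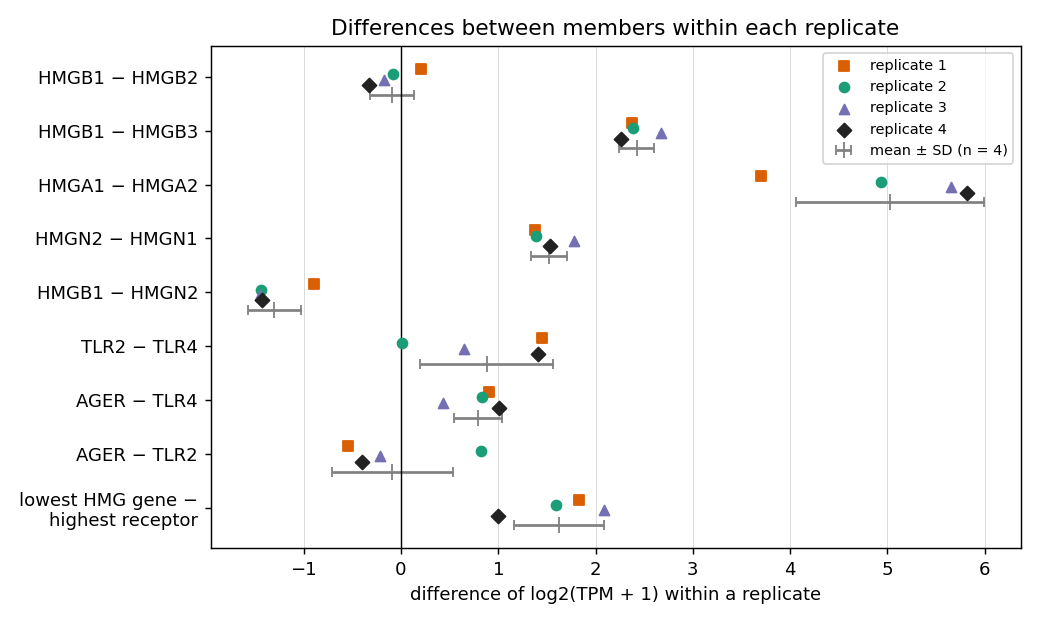
Difference of log2(TPM + 1) between members within each replicate (points) with the mean ± SD of 4 (grey), a positive value meaning that the gene or set named first is higher. HMGB1 − HMGB2 and AGER − TLR2 lie on both sides of 0, and the other 7 differences lie on 1 side in 4 of 4 replicates.

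In the order of means, HMGA1 (593), HMGN2 (512), HMGB2 (221), HMGB1 (209), HMGN1 (177), HMGB3 (38.1) and HMGA2 (14.6) were followed by AGER (3.42), TLR2 (3.30) and TLR4 (1.55). Of the 9 neighbours in this order, 4 pairs had ranges that did not overlap: HMGN2 above HMGB2, HMGN1 above HMGB3, HMGB3 above HMGA2, and HMGA2 above AGER. HMGA1 and HMGN2, HMGB2 and HMGB1, HMGB1 and HMGN1, AGER and TLR2, and TLR2 and TLR4 had ranges that overlap over the replicates. By mean TPM the HMG genes spanned percentiles 35.6 (HMGA2) to 98.2 (HMGA1) of the expressed genes. In replicate 1 alone HMGA2 was at 27.3 and HMGA1 at 90.2.

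The order of HMGB1 and HMGB2 depended on which bases of a gene were counted as its length. HMGB1 has a long 3′ UTR, so its deposited length of 5367 bp stands beside a coding sequence of 645 bp, while HMGB2 has 1653 bp beside 627 bp. With all annotated exons as the length (7723 bp for HMGB1 and 2775 bp for HMGB2), HMGB1 minus HMGB2 turned to 0.13 ± 0.22 (SD, n = 4). With the longest coding sequence, an alternative chosen after seeing the data, it was 1.56 ± 0.22 (SD, n = 4), above 0 in 4 of 4 replicates. The exons of protein-coding transcripts left HMGB2 above HMGB1 and put HMGN2 above HMGA1 by mean TPM. HMGN2 stayed above HMGN1 in 4 of 4 replicates under each of these lengths.

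Reads on processed pseudogenes, copies of an mRNA in the genome, were a further source of doubt for HMGB1, HMGN1 and HMGN2. The 27 HMGB1 pseudogenes held reads equal to 12.0% of those of HMGB1 in replicate 1 and 16.9% to 18.6% in replicates 2 to 4. Most were on HMGB1P5 (2483, 505, 874 and 546 counts) and HMGB1P6 (1437, 381, 931 and 677 counts), which also match the forward primer exactly. For HMGN2 the share was 24.1% in replicate 1, with 4257 counts on HMGN2P41, and 11.0% to 11.8% in the others, and for HMGN1 it was 8.40% to 12.4%. HMGB2, HMGB3 and HMGA1 had pseudogene reads of at most 1.82%. With these reads added to the parent gene, HMGB1 minus HMGB2 was 0.12 ± 0.19 (SD, n = 4), a change of sign that stays within the spread over replicates.

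**Figure D3:**
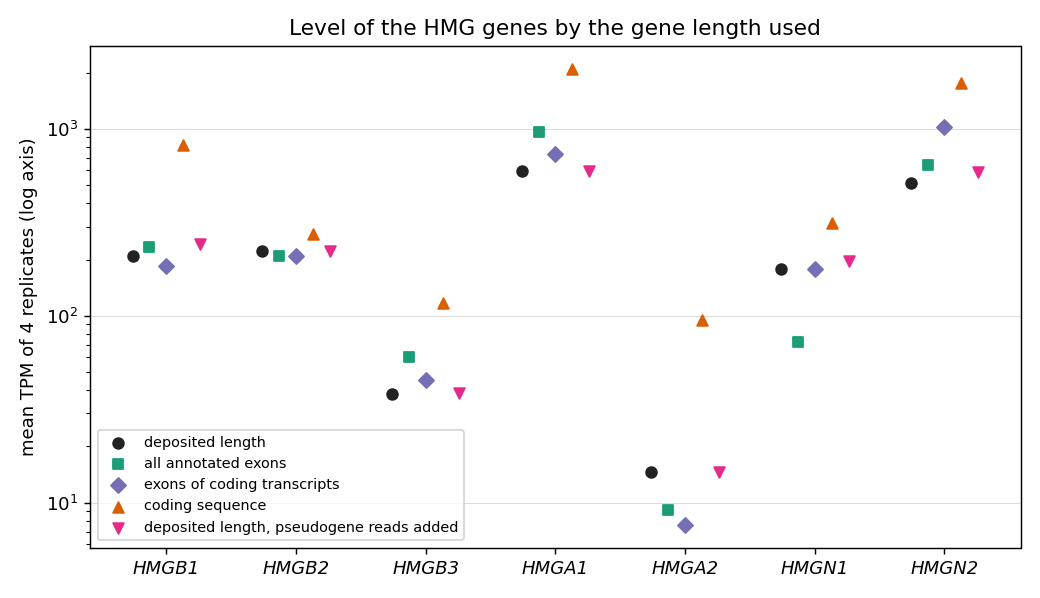
Mean TPM of 4 replicates (log axis) of the 7 HMG genes under each gene length, and with pseudogene reads added at the deposited length. HMGB1 moves from 209 to 818 with the coding sequence as the length, past HMGB2, which moves from 221 to 274.

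The 4 other HMGN and HMGB genes and 19 other HMG-box genes, a list without the SOX family, had lower means than HMGB1, apart from SSRP1. Of the former, HMGN4 (mean TPM 55.2), HMGN3 (36.6) and HMGN5 passed a TPM of 1 in every replicate, and HMGB4, a testis gene, was at 0 in all 4 libraries. HMGN5 was uneven, at 1.20, 5.73, 4.50 and 20.6, with replicate 4 highest, and is named after its values were seen. Among the 19 HMG-box genes, 13 had a TPM above 1 in all replicates, beside 56.7% of all protein-coding genes. The highest were SSRP1, a subunit of the histone chaperone FACT, at 231, 342, 365 and 399, and SMARCE1, a subunit of the BAF remodelling complex, at 182, 97.8, 115 and 138. SSRP1 was lowest in replicate 1 and SMARCE1 highest there. TOX3 had 0 counts in every library. For counting error, a count of 0 was given an upper limit of 3 counts, which is not a number of observed reads.

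The 3 receptor genes were near the limit of detection, and below every HMG gene in every replicate. AGER, which encodes RAGE and is best known from lung alveolar cells (chromosome 6, 32148745 to 32152099, minus strand, 1832 bp), had 41, 83, 40 and 48 counts, or a TPM of 0.921, 6.81, 2.43 and 3.52, a mean of 3.42 ± 2.50 (SD, n = 4). Replicate 2 was highest and replicate 1 lowest, with an interval from counting of 5.43 to 8.45 in replicate 2 and 0.661 to 1.25 in replicate 1 (95%, exact Poisson). AGER lies 174 bases from RNF5, which had 413 to 2615 counts, and 410 bases from PBX2, which had 784 to 1607. Per 1000000 protein-coding counts RNF5 was highest in replicate 1 (47.0 against 25.4 to 36.1), while PBX2 was lowest there (28.9 against 41.5 to 56.7), as AGER was. Whether reads of these neighbours were counted on AGER was not tested.

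TLR2, the receptor for bacterial lipoproteins (chromosome 4, 154605404 to 154627412, plus strand, 3908 bp), had 172, 89, 105 and 145 counts, or a TPM of 1.81, 3.43, 2.99 and 4.98, a mean of 3.30 ± 1.31 (SD, n = 4). It was the only receptor above a TPM of 1 in all 4 replicates, highest in replicate 4 and lowest in replicate 1. With TPM over all entries in place of protein-coding ones, TLR2 was at 0.561 in replicate 1 and missed that limit. TLR4, the receptor for lipopolysaccharide (chromosome 9, 120466453 to 120479769, plus strand, 5781 bp), had 4, 130, 80 and 54 counts, or a TPM of 0.028, 3.38, 1.54 and 1.25, a mean of 1.55 ± 1.39 (SD, n = 4). Replicate 1, the deepest library, had by far the lowest value, with an exact Poisson interval of 0.0078 to 0.073 that lies below those of the other 3 replicates. In bulk RNA, fewer cells with a transcript and less of it per cell cannot be told apart.

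The lowest HMG gene, HMGA2 in each replicate, exceeded the highest receptor by 1.00 to 2.09 on the log2(TPM + 1) scale, with a mean of 1.63 ± 0.46 (SD, n = 4; exact sign-flip permutation test, p = 0.125). The highest receptor was AGER in replicate 2 and TLR2 in replicates 1, 3 and 4. AGER minus TLR2 was -0.55, 0.82, -0.22 and -0.40, with a mean of -0.09 ± 0.62 (SD, n = 4; exact sign-flip permutation test, p = 0.88). These receptors could not be ordered, and the mean turned to 0.066 without replicate 1 and to 0.018 without replicate 4.

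With the deposited lengths TLR4 was the lowest of the 3 receptors in every replicate. TLR2 exceeded it by 1.45, 0.01, 0.65 and 1.41, a mean of 0.88 ± 0.68 (SD, n = 4), and AGER by 0.43 to 1.00, a mean of 0.79 ± 0.25 (SD, n = 4; exact sign-flip permutation test, p = 0.125 for each). In replicate 2 the counts put TLR2 at 1.01 times the reads per base of TLR4 (95% Clopper-Pearson interval 0.765 to 1.34), so no difference was detectable there. Without length correction AGER fell below TLR4, by 0.18 on the log2 scale, and TLR2 was above TLR4 in 3 of 4 replicates. With the longest coding sequence as the length, TLR2 and AGER were each above TLR4 in 3 of 4 replicates.

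In all, 8 of the 10 genes had a TPM above 1 in every replicate, the 7 HMG genes and TLR2, against 56.7% of the 19233 protein-coding genes. AGER and TLR4 missed this limit in replicate 1 alone. Markers of cells known for these receptors were low, apart from CD68 and CAV1. Of 8 myeloid markers 4 had at most 3 counts in every library (PTPRC, FCGR3A, TYROBP and AIF1), and their summed TPM, 8.10 in replicate 1 and 45.0, 38.6 and 16.6 in the others, was nearly all CD68, a lysosomal gene. Without CD68 the sum was 0.160, 1.08, 0.441 and 0.518, lowest in replicate 1 and highest in replicate 2, as TLR4 was. That sum rests on few reads, with ITGAM at 4, 20, 13 and 16 counts and CSF1R at 0 to 12. Of 6 lung alveolar markers SFTPA1 and NKX2-1 had at most 3 counts in every library, and without CAV1, which keratinocytes express, the sum was 0.481 to 1.22. The part of other cells in the receptor reads was not tested.

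Several adaptors of these receptors, IRAK1, DIAPH1, MYD88 and TICAM1 among them, had higher levels than any of the 3 receptors in every replicate, while the TLR4 partner MD-2 was not detected. LY96, which encodes MD-2, had 0 counts in all 4 libraries, and CD14, which hands lipopolysaccharide to TLR4, had a TPM of 3.03, 8.08, 4.99 and 8.92. The TLR2 partners were low, with TLR6 at 0.189 to 0.843 and TLR1 at no more than 0.318. Of 13 co-receptors and adaptors, 8 had a TPM above 1 in every replicate, beside 56.7% of all protein-coding genes.

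The highest adaptors were IRAK1, a kinase of the MYD88 complex, at 87.2, 231, 338 and 224, and DIAPH1, which binds the tail of RAGE, at 55.0, 194, 142 and 193. Both were lowest in replicate 1. MYD88 itself had 12.8, 93.4, 100.5 and 45.9, so replicates 2 and 3 were highest. TICAM1 (TRIF), the adaptor of the other TLR4 branch, had 4.64, 94.1, 55.4 and 52.6, and its partner TICAM2 had 0.0899 in replicate 1 and 3.40 to 6.70 in the others.

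**Figure D4:**
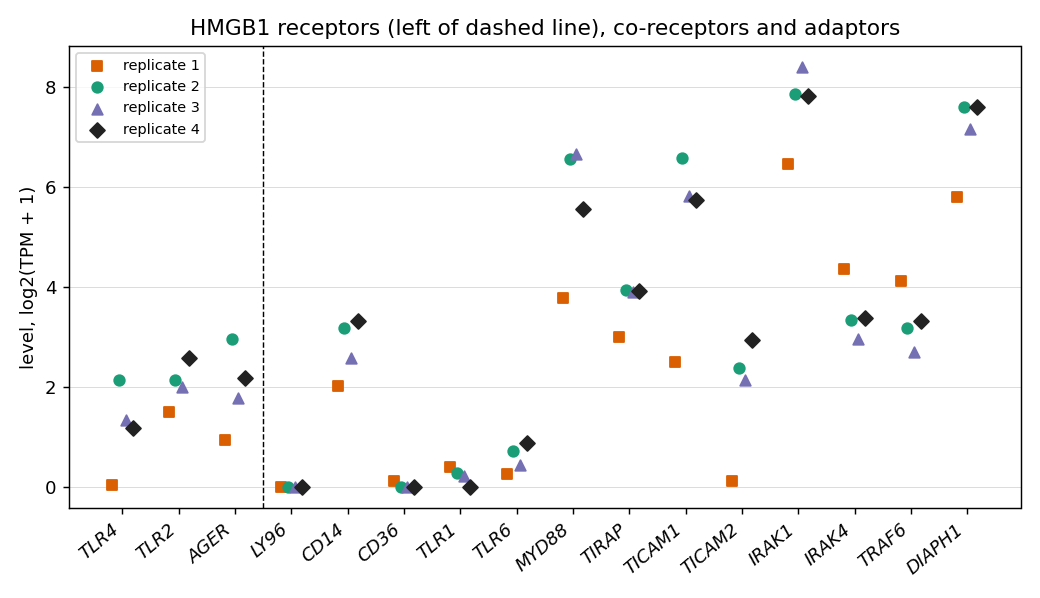
Level as log2(TPM + 1) of the 3 receptors and of 13 co-receptors and adaptors in each replicate. LY96 is at 0 in every replicate, and replicate 1 (squares) is lowest for the receptors, MYD88, TICAM1, IRAK1 and DIAPH1 and highest for IRAK4 and TRAF6.

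Most other receptors and partners of HMGB1 were at or near the limit of detection. TLR9, CXCR4, TREM1 and SIGLEC10 had 3 or fewer counts in every library. Of the 10 genes with an entry, 3 had a TPM above 1 in every replicate, beside 56.7% of all protein-coding genes. SDC1, a heparan sulfate proteoglycan of epithelia, was highest at 457, 229, 161 and 225, followed by THBD (thrombomodulin), which binds HMGB1, at 13.8, 49.5, 17.5 and 41.7. SDC1 was highest and THBD lowest in replicate 1. CD24, the partner of SIGLEC10, was not analysed here.

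All 12 genes of HMGB1 modification and transport had a TPM above 1 in every replicate, beside 56.7% of all protein-coding genes. The highest were the peroxiredoxins that can oxidize HMGB1, PRDX1 at 1228, 819, 1149 and 706 and PRDX2 at 524, 487, 524 and 516. PRDX2 was nearly level over the replicates. SIRT7 had 47.1, 55.8, 80.0 and 56.0, with replicate 3 highest. The acetyltransferase KAT2B was the lowest of the 12 by mean, with 9.65 in replicate 1 and 1.89 to 3.12 in the others. SIRT1, another deacetylase, had 27.6 in replicate 1 and 9.55 to 12.8 in the others. KAT2B, SIRT1 and SIRT7 are named after their values were seen.

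Other ligands of RAGE, the S100 proteins, included some of the most abundant mRNAs in the set. S100A6 had a TPM of 3755 in replicate 1 and 853 to 954 in the others, and S100A4 had 446 and 69.7 to 95.5. Both were far higher in replicate 1. S100A12 was at 0 in every library, and 6 of the 8 genes had a TPM above 1 in every replicate, beside 56.7% of all protein-coding genes.

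Replicate 1 was set against the mean of replicates 2 to 4 on the log2(TPM + 1) scale, with 1 library on 1 side and therefore no test. Of the 10 genes 3 were at least 2-fold lower in replicate 1, HMGA1, TLR4 and AGER, against 20.1% of the 12165 genes. None was 2-fold higher, against 17.4%, and in either direction the count of 3 stood beside 37.5%. The share of the members past 2-fold is thus near the background. HMGA1 differed by -2.52 (7.02 in replicate 1 against a mean of 9.54), TLR4 by -1.51 (0.04 against 1.55) and AGER by -1.36 (0.94 against 2.31). By TPM itself replicate 1 was 72.3 times below the mean of the others for TLR4, which had 4 counts there. It was 5.82 times below for HMGA1 and 4.62 times for AGER. With no pseudocount, an alternative chosen after seeing the data, 4 of the 10 genes were past 2-fold, against 42.4%. HMGA2 and TLR2 had differences of -0.76 and -0.75.

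The remaining HMG genes stayed close to the other replicates. HMGB3 was at 0.57, HMGB1 at 0.50, HMGN1 at 0.15, HMGB2 at 0.10 and HMGN2 at -0.04. The median of the 7 HMG genes was 0.10 and that of the 3 receptors -1.36, beside 0.03 over the 12165 genes.

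GC content moved with this difference across all genes. With the genes in 5 classes of like size by the GC content of the longest coding transcript, the median difference was -0.72 in the highest class and 0.82 in the lowest. HMGA1 (GC content 61.3%) and AGER (59.4%) belong to the highest class, where HMGA1 was lower than all but 7.61% of genes and AGER than all but 26.4%. TLR4 (39.3%), TLR2 (39.3%) and HMGA2 (38.8%) belong to the lowest class, most of whose genes were higher in replicate 1. TLR4 was below all but 2.10% of the genes there, HMGA2 below all but 5.63% and TLR2 below all but 5.76%. HMGB1 (37.9%) lies in the lowest class too, with a difference of 0.50. The part of GC content in these differences was not tested.

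**Figure D5:**
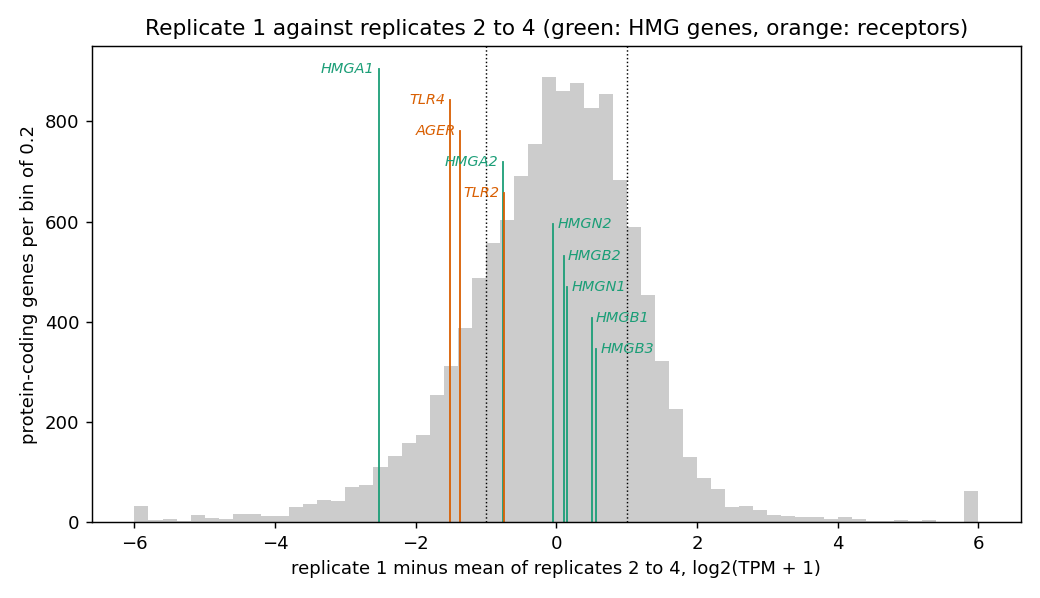
Number of protein-coding genes (grey bars, bins of 0.2, values beyond the axis ends placed in the last bins) by the difference of replicate 1 from the mean of replicates 2 to 4 in log2(TPM + 1), with the 10 genes as lines and dotted lines at 2-fold. HMGA1, TLR4 and AGER lie left of the 2-fold line, at -2.52, -1.51 and -1.36, and none lies right of it.

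By the same measure, of the 9 co-receptors and adaptors with a mean TPM above 1, 6 were at least 2-fold lower in replicate 1 (CD14, MYD88, TICAM1, TICAM2, IRAK1 and DIAPH1), beside 20.1% of all genes. IRAK4 and TRAF6 were higher, beside 17.4%, and the remaining gene was TIRAP, which had 7.04 in replicate 1 and 13.8 to 14.3 in the others. Of the 12 genes of HMGB1 modification and transport, only CREBBP was lower, at 7.20 against 19.8 to 37.8, beside 20.1% of all genes. KAT2B and SIRT1 were higher, beside 17.4%, so neither share of this list was above that of all genes. Of the 6 other RAGE ligands with a mean TPM above 1, 4 were higher (S100A4, S100A6, S100A7 and S100P), beside 17.4% of all genes, and none was lower. These lists were chosen with earlier results known, and their counts are a description.

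Among the 3 like libraries each HMG gene apart from HMGA2 had a smaller range than the median gene. The highest TPM + 1 was under 2 times the lowest in replicates 2 to 4 for 9 of the 10 genes, against 77.3% of the 12165 genes, and the exception was AGER. The added 1 carries part of this count, since by TPM itself TLR4 ranged 2.70-fold and HMGA2 2.06-fold over these replicates. With no pseudocount, an alternative chosen after seeing the data, 7 of the 10 genes were within 2-fold, against 69.7%, so that share was near the background. The range over these replicates was 0.11 for HMGN1, 0.18 for HMGB3, 0.33 for HMGA1, 0.41 for HMGB1 and HMGN2 and 0.50 for HMGB2 on the log2(TPM + 1) scale. HMGA2 had 0.98, near the 2-fold limit. The median over the 7 HMG genes was 0.41 and that over the 12165 genes 0.63. The 12165 genes had a median mean TPM of 24.5, and no genes matched in level to the HMG genes were compared.

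The 5 protein-coding genes with the profile most like HMGB1 were SUMO2, COQ3, PSMA4, CD2BP2 and TSPAN6. Likeness was the largest difference over the 4 replicates between centred log2(TPM + 1) profiles, among 8935 genes with a mean TPM above 10. SUMO2, a small ubiquitin-like modifier, was nearest with a largest difference of 0.02, at a TPM of 439, 282, 378 and 289. COQ3, a methyltransferase of ubiquinone synthesis, and PSMA4, a proteasome subunit, followed at 0.04 each. The other HMG genes were less alike, with HMGB3 at 0.25, HMGN1 at 0.27, HMGB2 at 0.30 and HMGA1 at 2.27. Profiles over 4 libraries share depth and replicate, so these values are a description only.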

How the data were processed

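Untreated HaCaT cells were sequenced in 4 biological replicates. The authors deposited raw read counts per gene with a gene length and position, plus RPKM for replicates 1 and 2 and TPM for replicates 3 and 4. The deposited RPKM and TPM equal what the counts and lengths give, so TPM over protein-coding genes was computed for all 4 from the counts. The submitters' processing notes name hg19 and HISAT2, TopHat2, Bowtie2 and HISAT, without versions or roles. Strand use and RNA selection are not given in the sources used here.

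The 10 genes, gene lists, tests and most alternatives were chosen with earlier results of these data known. With 1 condition, no test of differential expression was possible. Genes of a replicate were compared by their difference in log2(TPM + 1), and each set of 4 differences was put to an exact permutation test that flips signs (two-sided). The pseudocount of 1 understates the change of low genes. Replicate 1 was compared with the mean of replicates 2 to 4 without a test. A TPM above 1 counted as detected, and 3 counts were the limit of a zero. Intervals and limits cover only the counting error, because without molecular identifiers 2 reads may stem from the same molecule. The total count per library sets the precision (73082279, 17056035, 19745170 and 19083836).

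From each list the text names the 2 genes with the highest mean TPM and those with at most 3 counts in every replicate, and others as named after their values were seen. Receptor partners, adaptors and markers named for their place in the pathway are also outside that rule. Pseudogenes were taken by the symbol of a member followed by P and a number. Lengths, GC content and oligo sites came from GENCODE release 29 (GRCh38), where 97.7% of the genes tested had a GC content. Oligo sequences came from the supplement of the study. The script was tested on simulated data. The tools were Python 3.11.15 with SciPy 1.17.1, pandas 2.3.3, NumPy 2.4.6, Biopython 1.88 and matplotlib 3.10.9.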

Additional observations from a re-analysis of the deposited data

Results flagged for a closer look

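Dixon's test at the 95% level was applied to 59 quantities, each with a value in 4 replicates, and in 9 of them a replicate was too far out, always replicate 1. Chance gives about 1 in 20 where quantities are independent and chosen without their values. Neither holds here, since some genes were included after their values were seen and 5 for a profile like that of HMGB1, so the 9 cannot be set against a chance count.

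Of the 9 one was a difference between members. HMGB1 minus HMGN2 was -0.90 on the log2(TPM + 1) scale in replicate 1, against -1.45 to -1.43 in the others. HMGN3 stood at a TPM of 63.4 in replicate 1 against 26.1 to 30.6 elsewhere, and HMGN4 at 73.0 against 47.6 to 51.9, at the edge of the limit. The RAGE ligands S100A6 (3755 against 853 to 954), S100A4 (446 against 69.7 to 95.5) and S100P (55.9 against 3.49 to 7.37) were higher in replicate 1. KAT2B had a TPM of 9.65 against 1.89 to 3.12, and TIRAP was lower, with 7.04 against 13.8 to 14.3. The protein-coding share of the counts was 76.1% in replicate 1 against 95.3% to 96.4%. None of the levels of the 10 genes passed this limit.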

How the results depend on the processing

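Over 144 recomputed values, 131 kept their direction or stayed within 1.5 times for counts, 10 turned their direction and 3 moved. HMGB1 minus HMGB2, -0.09, turned to 1.60 without length correction, 0.13 with all annotated exons, 1.56 with the coding sequence and 0.12 with pseudogene reads added. Without length correction HMGB1 minus HMGN2 turned to 0.14 and AGER minus TLR4 to -0.18. AGER minus TLR2, -0.09, turned to 0.077 with all annotated exons and 0.17 with exons of protein-coding transcripts.

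Leaving out each replicate in turn, AGER minus TLR2 ran from -0.39 to 0.066, turning without replicate 1 (0.066) and without replicate 4 (0.018). HMGB1 minus HMGB2 ran from -0.19 to -0.02 and TLR2 minus TLR4 from 0.69 to 1.17. The number of genes detected was 10 without replicate 1 (background 59.6%) and 8 without replicate 2, 3 or 4 (backgrounds 56.8% to 58.0%). It was 7 with TPM over all entries, which drops TLR2 (background 53.0%).

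The count past 2-fold in replicate 1, 3, moved to 9 with TPM over all entries, where the median of all genes shifts to -1.27, and to 5 with a limit of 1.5-fold. Their backgrounds became 64.3% and 60.6%. Relative to that median HMGB1 was at 0.25. The count within 2-fold, 9, moved to 5 over all 4 replicates, with a background of 40.9%.

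No paired analysis was possible because all samples belong to 1 group. The planned coding length from protein sequences was not run, and the annotated coding sequence took its place. Receptor counts of 4 to 172 limit the receptor values, and the 4 replicates cannot give an exact p under 0.125.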
